A study of Mus musculus with 9 samples.

Results

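Liver burns fatty acids in mitochondria and in peroxisomes, and 45 genes of these routes and of ketone body formation were followed through the development of thioacetamide (TAA) fibrosis and its reversal. They were chosen by gene symbol from the mRNA table, which lists 21873 genes, and all 45 were present and passed the filter on low values described below. By the known place of their products, 25 were counted as mitochondrial, 13 as peroxisomal and 7 as cytosolic or located in several or other places. RNA of whole liver was sequenced from 9 male C57BL/6 mice, 3 in each group, obtained at an age of 8 weeks. The control group received intraperitoneal saline for 8 weeks, the TAA group intraperitoneal TAA for 8 weeks, and the recovery group the same TAA course and then 8 weeks of recovery. No group carried an engineered allele. The recovery mice were older at collection, and no saline group of their age was analysed here, so that age and recovery cannot be told apart. The labels number the samples within a group and say nothing more about how they were raised, so p values measure the spread between these mice.

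Long-chain fatty acids are activated to acyl-CoA, passed through the mitochondrial membranes as carnitine esters and shortened by rounds of dehydrogenation, hydration, a second oxidation and thiolysis. Peroxisomes shorten very long, branched and dicarboxylic chains by the same chemistry, but their first enzyme, an acyl-CoA oxidase, passes electrons directly to oxygen. In hepatocytes the acetyl-CoA formed feeds ketogenesis, and many of these genes are known targets of the fatty acid receptor PPAR-alpha, which binds DNA with RXR at a direct repeat of AGGTCA spaced by 1 base.

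The deposited values were FPKM (fragments scaled to gene length and library depth), a level per length that can be compared between genes. Each library was divided by its own median-of-ratios factor, and "level" below means this scaled FPKM. Depth, estimated from the steps between low FPKM, was 26.6 to 40.4 M fragments per library. Control libraries had factors of 0.827 to 0.878, TAA libraries of 1.29 to 1.38 and recovery libraries of 0.893 to 0.907, so the scaling itself lowered the TAA group by 0.64 on the log2 scale against the control group. All changes below are relative to that shift. The 11 hepatocyte markers with a row were abundant in every library, and summed to 42047 to 46988 in control mice, 24970.2 to 32891 in TAA mice and 52324 to 54742 in recovery mice. As shares of summed FPKM, which use no scaling between libraries, they held 9.57% to 10.4%, 10.6% to 12.6% and 12.5% to 12.9%. Whether these markers were lower in the TAA group thus depended on the scaling. All 6 cholangiocyte markers and all 8 stellate cell and myofibroblast markers were called higher in the TAA group, where their summed levels were 303 to 447 and 193 to 290 against 15.7 to 20.98 and 15.7 to 16.5 in the control group. In bulk RNA, a change in the number of hepatocytes and a change in RNA per hepatocyte cannot be told apart. In the library TAA 3 the 9 skeletal muscle markers summed to 40.1, against at most 0.0783 in every other library. In control 1 the 5 macrophage markers summed to 48.1, against 110 and 114 in the other control mice. Their part in the results was not tested beyond leaving out each mouse, and values without a mouse are given where a call among the members depended on it.

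A search for the PPAR-alpha and RXR repeat shows where members hold such letters. Promoter windows of 250 bases before to 50 bases after the RefSeq start (GRCm38.p6) were found for 40 of the 45 genes. The exact 13-base motif AGGTCANAGGTCA, on either strand, was in 0 of the 40, and in 0.0481% of 27025 genes with a window. With 1 of its 12 fixed letters allowed to differ it was in 2 members (5%), against 0.644% of all genes, and with 2 letters allowed to differ in 7 members (17.5%), against 4.40% of all genes. The windows of the 5 members whose match lay before the start are shown on the gene's strand, with the match in capitals. A match is a likeness of letters and not a shown binding site.

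Fabp1, chr6:71199788-71199848, plus strand, 1 letter differs, match starts 67 bases before the start: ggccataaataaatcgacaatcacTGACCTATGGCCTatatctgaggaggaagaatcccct
Acot12, chr13:91741387-91741447, plus strand, 1 letter differs, match starts 110 bases before the start: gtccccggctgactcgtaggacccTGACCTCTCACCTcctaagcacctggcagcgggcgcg
Acot4, chr12:84038342-84038378, plus strand, 2 letters differ, match starts 13 bases before the start: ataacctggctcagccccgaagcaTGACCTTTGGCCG
Etfa, chr9:55512284-55512344, minus strand, 2 letters differ, match starts 77 bases before the start: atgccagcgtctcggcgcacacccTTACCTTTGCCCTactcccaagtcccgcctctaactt
Echs1, chr7:140116468-140116528, minus strand, 2 letters differ, match starts 83 bases before the start: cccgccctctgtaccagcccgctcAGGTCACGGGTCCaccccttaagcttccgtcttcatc

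In the first 4 of these windows the match reads as the repeat on the opposite strand, and in that of Echs1 on the gene's own strand. Slc25a20 and Acox2 had their match, with 2 letters differing, after the start. Fabp1, Acot12, Acot4, Etfa and Slc25a20 were called lower in the TAA group by the rule given next, and Echs1 and Acox2 were not.

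Most of the 45 genes were lower in the TAA group and near the control level after recovery. A gene was called when the limma test gave an adjusted p (Benjamini-Hochberg over the 14094 tested genes) below 0.05 and the fold change was at least 2. For TAA against control, 35 of the 45 members were called lower, where 8.02% of all tested genes were, and 1 was called higher, where 17.0% were. Without the fold limit, 42 had an adjusted p below 0.05 in the lower direction (26.3% of tested genes). The median log2 fold change of the members was -1.52, against 0.02 for all tested genes. Without TAA 3 or without control 1 the number called lower was 32 or 33. In 42 members every TAA mouse was below every control mouse, where 31.0% of tested genes showed this. For recovery against TAA, 28 members were called higher (7.12% of tested genes) and 0 lower (14.3%), with a median of 1.204. Transcripts of the mitochondrial genome, followed as a sign of RNA quality, moved in the same directions in the reported scaling. Of 6 such genes 5 were called higher for recovery against TAA (7.12% of tested genes), with a median of 1.63. For TAA against control 4 had an adjusted p below 0.05 in the lower direction (26.3%), with a median of -0.65. They summed to 9459.7 to 13837 in control mice, 5324 to 7599 in TAA mice and 12096 to 19673 in recovery mice, and their part in the result was not tested. As shares of summed FPKM, which use no scaling between libraries, they held 2.17% to 3.15%, 2.25% to 3.04% and 2.90% to 4.62%. In these shares the TAA mice lay inside the range of the control mice. For recovery against TAA the limma test gave 1 member, Acsl5, an adjusted p below 0.05 in the lower direction (26.0% of tested genes). In 43 members every recovery mouse was above every TAA mouse (29.4%). For recovery against control, 1 member was called higher (0.582% of tested genes) and 0 lower (0.412%), and 2 had an adjusted p below 0.05 in the lower direction (1.38%). At an unadjusted limma p below 0.05 there were 19 members in either direction, and 3242 of the 14094 tested genes. The comparisons share libraries, so their values are given side by side and no overlap between them is read as a result.

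**Figure D1:**
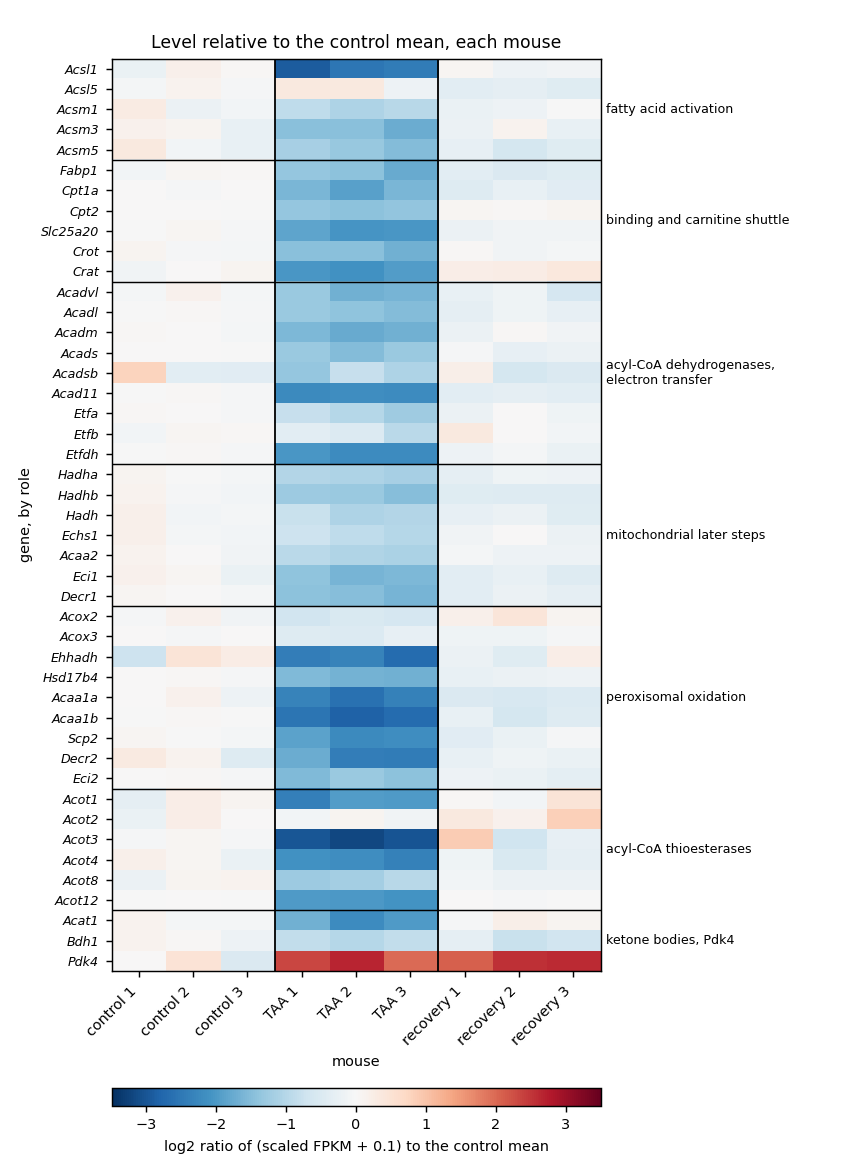
Level of the 45 genes (rows, by role) in each of the 9 mice (columns) as the log2 ratio of scaled FPKM plus 0.1 to the mean of the 3 control mice, with blue below and red above the control mean. The 3 TAA columns are blue for all but Acsl5, Acot2 and Pdk4, the recovery columns are pale for most genes, and Pdk4 is red in all TAA and recovery mice. With FPKM as deposited, Acox2, Acox3, Etfb and Acot2 would have a TAA group mean above that of the control group.

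Together the 45 genes held 2.41% to 2.51% of the summed FPKM of a control library, 1.33% to 1.40% of that of a TAA library and 2.11% to 2.23% of that of a recovery library. These shares use no scaling between libraries, and the groups did not overlap. The number of calls did depend on the scaling. With FPKM as deposited, 17 members were called lower in the TAA group, where 2.99% of tested genes were called lower and 31.1% higher, and 16 higher for recovery against TAA (2.90% of tested genes). With quantile normalization, where 9.61% of tested genes were called lower and 10.9% higher, the numbers were 15 and 16 (8.50% for the latter). With the hepatocyte markers as the reference, a scaling chosen after the data were seen, they were 17 (3.08%) and 14 (1.98%). The median of the members was 1.54 below that of all tested genes on the log2 scale, and 0.81 below it with quantile normalization. The other scalings shift all genes of a library alike and so do not bear on this distance.

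Of the 5 genes of fatty acid activation, 3 were called lower in the TAA group. Acsl1 (ENSMUSG00000018796, mm10 chromosome 8, 46471037 to 46536051, plus strand) encodes the main long-chain acyl-CoA synthetase of liver. Its level was 488, 646 and 593 in the control mice, 75.9, 98.1 and 104 in the TAA mice and 605, 509 and 526 in the recovery mice. All TAA mice lay far below the other mice, and control and recovery mice overlapped. The TAA mean was 6.22-fold below the control mean (log2 fold change -2.64 ± 0.16 SE, limma adjusted p = 1.6e-05), and recovery against TAA was 2.57 ± 0.14.

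Acsl5, a second long-chain acyl-CoA synthetase, behaved differently. Its level was 153, 177 and 156 in the control mice, 205, 207 and 144 in the TAA mice and 126, 131 and 121 in the recovery mice. The TAA mice spread around the control mice (log2 fold change 0.18 ± 0.15 SE, adjusted p = 0.37), and every recovery mouse lay below every other mouse. The recovery group had a log2 fold change of -0.54 ± 0.15 against the TAA group (adjusted p = 0.018) and of -0.36 ± 0.08 against the control group (adjusted p = 0.069). With quantile normalization Acsl5 was called higher in the TAA group. Acsm1, a medium-chain acyl-CoA synthetase of mitochondria, missed the fold limit in the TAA group at -0.98 ± 0.14 (adjusted p = 0.00075). Its level was 109.8, 77.6 and 84.1 in the control mice, 47.9, 41.9 and 46.0 in the TAA mice and 76.7, 79.2 and 89.3 in the recovery mice, and it was called lower at -1.09, -1.03 and -1.02 without control 2, control 3 or TAA 1. Of the exon bases of Acsm3, 39.8% lie in exons of Eri2 on the opposite strand, so without a stated strand setting its level is uncertain. Acsm3 and the related Acsm5 had log2 fold changes of -1.57 and -1.33 in the TAA group.

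All 6 genes of fatty acid binding and the carnitine shuttle were called lower in the TAA group and higher for recovery against TAA. No other role list showed this in full, but it held in the reported scaling only. With FPKM as deposited or hepatocyte marker scaling, Fabp1, Cpt2 and Crot were no longer called lower in the TAA group. With quantile normalization Cpt1a was not called either, and the recovery calls of the list depended on the scaling too. Cpt1a (mm10 chromosome 19, 3322334 to 3385733, plus strand) encodes the carnitine palmitoyltransferase of the outer mitochondrial membrane, the known control point for entry. Its level was 306, 295 and 308 in the control mice, 99.0, 81.4 and 99.1 in the TAA mice and 222, 254 and 231 in the recovery mice. The 3 groups did not overlap. The TAA group had a log2 fold change of -1.71 ± 0.10 (adjusted p = 1.8e-05) and the recovery group of -0.36 ± 0.08 against control (adjusted p = 0.066).

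Crat, the carnitine acetyltransferase, fell the most of the list. Its level was 46.7, 51.2 and 54.7 in the control mice, 12.4, 11.5 and 13.1 in the TAA mice and 59.9, 60.7 and 66.2 in the recovery mice. Every recovery mouse was above every control mouse, at a log2 difference of 0.29 ± 0.08 that did not pass the test (adjusted p = 0.11). Cpt2, the palmitoyltransferase of the inner membrane, fell the least. Its level was 75.4, 74.6 and 73.3 in the control mice, 29.3, 27.6 and 28.4 in the TAA mice and 77.5, 75.9 and 80.2 in the recovery mice, with a log2 fold change of -1.38 ± 0.07 in the TAA group (adjusted p = 1.1e-05). The others were Slc25a20, the carnitine-acylcarnitine carrier, at -1.98, Crot, the peroxisomal octanoyltransferase, at -1.54 and Fabp1, the fatty acid binding protein of hepatocytes, at -1.51. The recovery call of Fabp1, 1.08 against the TAA group, was lost at 0.95 without TAA 3, and its direction turned with quantile normalization.

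Of the 9 genes of acyl-CoA dehydrogenation and electron transfer, 8 were called lower in the TAA group and 6 higher for recovery against TAA. Acad11, an acyl-CoA dehydrogenase, fell the most. Its level was 315, 328 and 307 in the control mice, 68.0, 70.4 and 68.6 in the TAA mice and 246, 254 and 246 in the recovery mice. The mice of a group differed little, and the groups did not overlap. On the log2 scale the TAA group differed from control by -2.20 ± 0.08 (adjusted p = 2.8e-06) and the recovery group by -0.35 ± 0.07 (adjusted p = 0.052). The dehydrogenases for very long, long, medium and short chains, Acadvl, Acadl, Acadm and Acads, were close to each other at -1.53, -1.41, -1.67 and -1.37 in the TAA group. The level of Acadvl is uncertain, since 42.9% of its exon bases lie in exons of Dvl2 on the opposite strand and the strand setting was not stated. Acadsb, which acts in isoleucine breakdown as well, was called at -1.07 ± 0.31, but rested on single mice. Its level was 44.6, 20.1 and 19.99 in the control mice, 10.1, 15.0 and 12.4 in the TAA mice and 30.3, 16.9 and 18.3 in the recovery mice, and the call was lost without control 1 (-0.70), TAA 1 (-0.93, adjusted p = 0.073) or TAA 3 (-1.07, adjusted p = 0.060).

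Electrons from these enzymes pass through the flavoprotein ETF, built from Etfa and Etfb, to its oxidoreductase Etfdh. The 3 genes fell unequally. Etfdh was 220.1, 228 and 215 in the control mice, 54.1, 48.4 and 48.4 in the TAA mice and 197, 211 and 187 in the recovery mice, a log2 fold change of -2.14 ± 0.08 in the TAA group (adjusted p = 3.6e-06). Etfa was 169.7, 166 and 159 in the control mice, 94.1, 81.7 and 69.8 in the TAA mice and 142, 167 and 148 in the recovery mice, a log2 fold change of -1.02 ± 0.12 (adjusted p = 0.00031) that left the call at -0.90 without TAA 3. For recovery against TAA, Etfa was at 0.90 and was called higher without TAA 1 (1.002). The ratio of the level of Etfa to that of Etfdh does not change when all genes of a library are divided by the same factor. This ratio was 0.728 to 0.771 in the control mice, 1.44 to 1.74 in the TAA mice and 0.721 to 0.792 in the recovery mice. It was above 1 in every TAA mouse and below 1 in every other mouse, and this pair was chosen after its values were seen. Etfb was 189, 213 and 209.8 in the control mice, 158, 146 and 105 in the TAA mice and 258, 205 and 191 in the recovery mice, with a log2 fold change of -0.60 ± 0.16 (adjusted p = 0.014) that turned positive with FPKM as deposited, quantile normalization or hepatocyte marker scaling. Of the exon bases of Etfb, 58.3% lie in exons of other annotated genes of the same strand, Gm45233 and Mir7051, so its level is uncertain.

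Among the 7 mitochondrial genes of hydration, second oxidation, thiolysis and auxiliary steps, 5 were called lower in the TAA group and 2 higher for recovery against TAA, although all 7 had an adjusted p below 0.05 in both comparisons. Eci1 and Decr1, an isomerase and a reductase for unsaturated chains, were the members called higher for recovery against TAA. Decr1 was at -1.52 in the TAA group, and Eci1 fell the most. Its level was 148, 138 and 114 in the control mice, 49.7, 43.1 and 44.8 in the TAA mice and 103, 112 and 97.4 in the recovery mice. All TAA and all recovery mice lay below all control mice, the TAA group at -1.53 ± 0.12 (adjusted p = 4.7e-05) and the recovery group at -0.35 ± 0.11 (adjusted p = 0.14). Acaa2, the thiolase with the highest level of the mitochondrial members, was 560.0, 518 and 477 in the control mice, 271, 249 and 242 in the TAA mice and 494, 459 and 455 in the recovery mice. Its call in the TAA group was close to the fold limit at -1.03 ± 0.10, was lost at -0.98 without control 1 and at -0.99 without TAA 3, and turned to 0.23 with quantile normalization.

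Echs1, the short-chain enoyl-CoA hydratase, and Hadh, the hydroxyacyl-CoA dehydrogenase for medium and short chains, missed the fold limit. Echs1 was 129, 109 and 108 in the control mice, 69.7, 62.2 and 57.4 in the TAA mice and 106, 116 and 99.8 in the recovery mice, with -0.87 ± 0.11 in the TAA group (adjusted p = 0.00049). Hadh was 209, 175 and 176 in the control mice, 108, 88.4 and 90.5 in the TAA mice and 152, 162 and 139 in the recovery mice, with -0.97 ± 0.12 (adjusted p = 0.00036). For both, all TAA mice were below all other mice, and Hadh was called lower without control 2 (-1.01), control 3 (-1.01) or TAA 1 (-1.05). Hadha and Hadhb encode the 2 subunits of the trifunctional protein, from neighbouring genes on opposite strands of chromosome 5. Hadha was at -1.10 and Hadhb at -1.36 in the TAA group, and the ratio of their levels was 1.204 to 1.26 in the control mice, 1.43 to 1.56 in the TAA mice and 1.33 to 1.53 in the recovery mice.

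Of the 9 genes of peroxisomal oxidation, 7 were called lower in the TAA group and the same number higher for recovery against TAA. The list included the largest levels of all members. Scp2, whose long form is the thiolase for branched chains, was 1708, 1604 and 1559 in the control mice, 447, 347 and 359 in the TAA mice and 1228, 1389 and 1567 in the recovery mice. Control and recovery mice overlapped by 1 mouse, and the TAA mice stood apart at -2.09 ± 0.13 (adjusted p = 2.1e-05). The table has 1 value for all forms of the gene, and 25.6% of its 75-base words also occur in a pseudogene. Ehhadh (mm10 chromosome 16, 21761287 to 21787807, minus strand), the bifunctional hydratase and dehydrogenase of straight chains, was 571, 1309 and 1147 in the control mice, 177, 188 and 148 in the TAA mice and 826, 709 and 1127 in the recovery mice. Control 1 was far below the other control mice, and still above every TAA mouse. The log2 fold change in the TAA group was -2.48 ± 0.30 (adjusted p = 0.00034).

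The thiolases Acaa1a and Acaa1b are paralogs on chromosome 9. Acaa1b was 1040.2, 1084 and 1054 in the control mice, 181, 149.8 and 165 in the TAA mice and 877, 687 and 776 in the recovery mice. Acaa1a was 158, 175 and 139.9 in the control mice, 30.7, 25.8 and 30.4 in the TAA mice and 110.1, 107 and 112 in the recovery mice. For both, the groups did not overlap, and recovery mice lay between TAA and control mice. The log2 fold changes in the TAA group were -2.68 ± 0.11 for Acaa1b and -2.44 ± 0.12 for Acaa1a, and those of the recovery group against the control group were -0.45 ± 0.12 (adjusted p = 0.094) and -0.51 ± 0.09 (adjusted p = 0.048). Of the 75-base words of Acaa1b 24.4% occur in Acaa1a, so reads may have been split between them.

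The branched-chain oxidases Acox2 and Acox3 fell the least of the peroxisomal genes. Acox2, which acts on bile acid intermediates, was 64.8, 73.5 and 61.0 in the control mice, 41.4, 45.4 and 44.0 in the TAA mice and 74.95, 88.9 and 71.3 in the recovery mice. Acox3 was low throughout, at 8.52, 8.09 and 8.49 in the control mice, 6.07, 6.01 and 6.79 in the TAA mice and 7.56, 7.50 and 8.12 in the recovery mice. All TAA mice were below all other mice for both genes, but the log2 fold changes of -0.60 ± 0.10 (adjusted p = 0.0014) and -0.41 ± 0.10 (adjusted p = 0.0086) turned positive with FPKM as deposited or hepatocyte marker scaling. The other members, Hsd17b4, Decr2 and Eci2, which carry out the hydration and dehydrogenation of branched chains and the handling of double bonds, were at -1.63, -2.21 and -1.43.

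**Figure D2:**
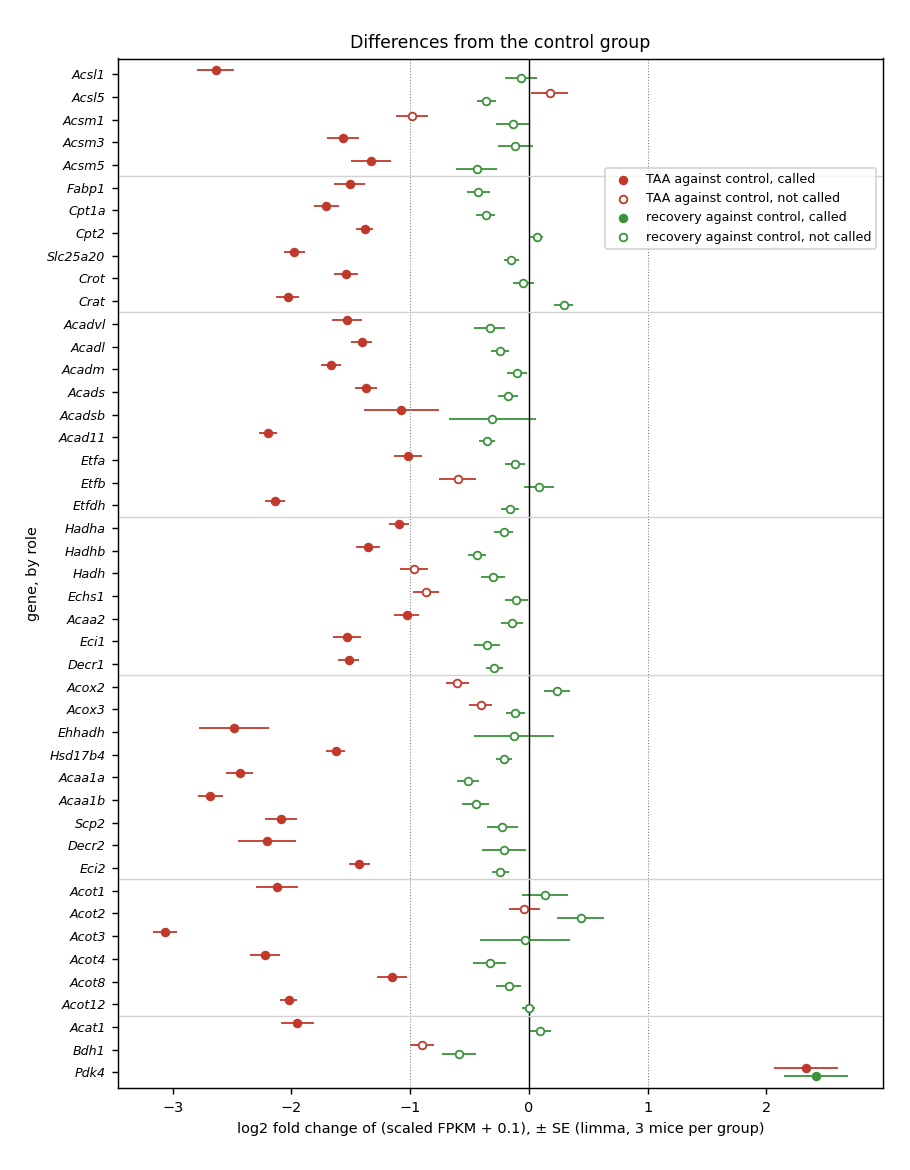
Log2 fold change of scaled FPKM plus 0.1 (x axis, ± SE from limma, 3 mice per group) of the 45 genes by role, for the TAA group (red) and the recovery group (green) against the control group, with filled points where the gene was called and dotted lines at a 2-fold change. Red points run from -3.06 for Acot3 to 2.33 for Pdk4, and the green points lie between -0.59 and 0.43 apart from Pdk4 at 2.42. Red points of Etfb, Acox2, Acox3 and Acot2 would lie above 0 with FPKM as deposited.

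The 6 acyl-CoA thioesterases, which cut acyl-CoA back to free acid and CoA, held both the largest fall and a gene far from a call. On chromosome 12 the paralogs Acot2, Acot1, Acot4 and Acot3 lie in this order between 83987861 and 84060402 on the plus strand, and their products are known from mitochondria, cytosol and, for the last pair, peroxisomes. Acot3 was 18.3, 19.5 and 18.3 in the control mice, 2.26, 1.96 and 2.23 in the TAA mice and 34.7, 11.4 and 15.4 in the recovery mice. The mean was 8.69-fold lower in the TAA group (log2 fold change -3.06 ± 0.10, adjusted p = 2.2e-06), and recovery 1 was 3.05-fold above recovery 2, the widest spread of any member in a group. Acot4 was 66.5, 62.1 and 50.2 in the control mice, 13.7, 12.9 and 11.3 in the TAA mice and 53.3, 40.9 and 47.7 in the recovery mice, with -2.22 ± 0.13 in the TAA group.

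The cytosolic Acot1 and the mitochondrial Acot2 differed. Acot1 was 44.9, 65.7 and 60.5 in the control mice, 10.6, 14.3 and 14.1 in the TAA mice and 58.5, 52.3 and 77.7 in the recovery mice, with -2.12 ± 0.17 in the TAA group (adjusted p = 6.2e-05). Acot2 was 19.2, 26.5 and 22.8 in the control mice, 21.3, 23.96 and 20.8 in the TAA mice and 28.7, 24.9 and 40.1 in the recovery mice. The TAA mice of Acot2 lay inside the range of the control mice, at -0.04 ± 0.13 (adjusted p = 0.82) with a sign that depended on the scaling. The ratio of the level of Acot1 to that of Acot2 does not change when all genes of a library are divided by the same factor. This ratio was 2.35 to 2.66 in the control mice, 0.496 to 0.675 in the TAA mice and 1.94 to 2.10 in the recovery mice. Of the 75-base words of Acot2 20.5% also occur in Acot1, so part of the reads of one may have been counted for the other. Acot8 and Acot12, the remaining thioesterases, were at -1.15 and -2.02 in the TAA group. Acot8 missed the fold limit for recovery against TAA at 0.98, and was called higher at 1.06 without TAA 3 and at 1.004 without recovery 3.

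**Figure D3:**
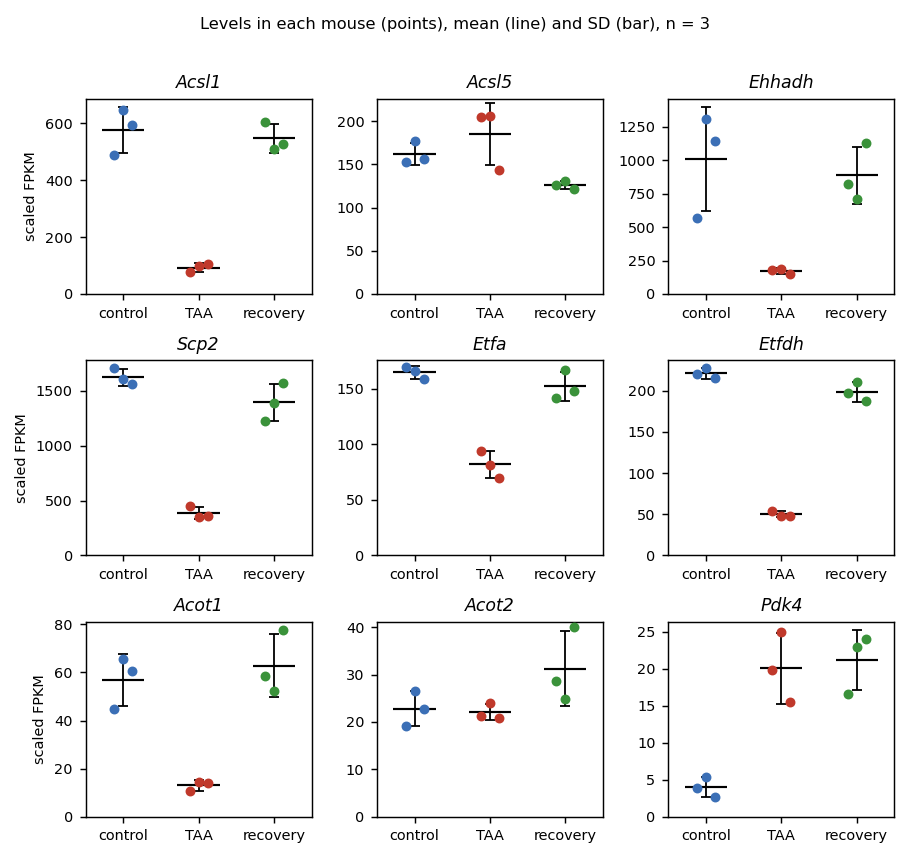
Scaled FPKM (y axis, from 0) of 9 genes in each mouse (points) of the control, TAA and recovery groups, with the mean (line) and SD (bar, n = 3). Acsl1, Ehhadh, Scp2, Etfa, Etfdh and Acot1 are low in all TAA mice, Acsl5 and Acot2 are not, and Pdk4 is at 15.5 or more in every TAA and recovery mouse and at 5.42 or less in every control mouse.

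The last 3 members belong to ketone body formation and to the switch from glucose to fat. Acat1, a mitochondrial acetoacetyl-CoA thiolase, was 106, 93.1 and 92.6 in the control mice, 30.4, 21.2 and 24.4 in the TAA mice and 94.7, 112 and 104 in the recovery mice, with -1.95 ± 0.14 in the TAA group (adjusted p = 3.5e-05). Bdh1, which reduces acetoacetate to beta-hydroxybutyrate, was 139, 132 and 114 in the control mice, 70.4, 64.4 and 70.7 in the TAA mice and 103, 73.8 and 80.1 in the recovery mice. Its recovery mice lay between the other groups without overlap. The log2 fold change of Bdh1 was -0.90 ± 0.10 in the TAA group (adjusted p = 0.00025), 0.31 ± 0.13 for recovery against TAA (adjusted p = 0.084) and -0.59 ± 0.14 against the control group (adjusted p = 0.082).

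Pdk4 (ENSMUSG00000019577, mm10 chromosome 6, 5483351 to 5496309, minus strand), a kinase that shuts off pyruvate dehydrogenase and so spares glucose when fat is burned, was the 1 member called higher in the TAA group. Its level was 3.85, 5.42 and 2.68 in the control mice, 19.8, 24.99 and 15.5 in the TAA mice and 16.6, 23.0 and 24.03 in the recovery mice. The TAA and recovery mice shared 1 range, and all were above every control mouse. The mean was 5.04-fold higher in the TAA group (log2 fold change 2.33 ± 0.27, adjusted p = 0.00029) and 5.32-fold higher in the recovery group (2.42 ± 0.27, adjusted p = 0.016), and recovery against TAA was 0.09 ± 0.20 (adjusted p = 0.75). Both differences from the control group were positive under every scaling. The recovery call was lost without recovery 2 (2.35, adjusted p = 0.080) or recovery 3 (2.32, adjusted p = 0.069), where the difference itself changed little.

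By compartment, 18 of the 25 mitochondrial members and 11 of the 13 peroxisomal members were called lower in the TAA group (8.02% of tested genes). These numbers depended on the scaling, as did that of all members. The median log2 fold change was -1.36 for mitochondrial and -2.09 for peroxisomal members. The other 7 had a median of -2.03. The summed level of the mitochondrial members was 3411 to 3769 in control mice and 1420.2 to 1644 in TAA mice, and that of the peroxisomal members was 4810.4 to 5449 and 1099.7 to 1277. Peroxisomal members thus summed to more than mitochondrial members in every control mouse and to less in every TAA mouse. In the recovery group they summed to 4022 to 4707, against 3039.5 to 3256 for the mitochondrial members. The peroxisomal sum rests largely on Scp2, Acaa1b and Ehhadh, with control means of 1624, 1059 and 1009 out of 5106. It describes these abundant genes more than the compartment as a whole. The difference between the compartments was not tested, since genes are not replicates.

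Lists of other genes of these organelles are given beside the members, with no test of the difference. Of 21 mitochondrial reference genes (respiratory chain and other mitochondrial genes) the limma test called 0 in the TAA group in either direction (8.02% of tested genes lower and 17.0% higher). It gave 17 an adjusted p below 0.05 in the lower direction (26.3%) and 1 in the higher (28.2%). An unadjusted p below 0.05 was found for 18 (8455 of 14094 tested genes), and the median of the list was -0.46. As a share of summed FPKM, which uses no scaling between libraries, the list held 0.501% to 0.592% in control mice and 0.656% to 0.674% in TAA mice. The direction of this list thus depended on the scaling. Of 16 peroxisome biogenesis genes 6 were called lower (8.02% of tested genes), with a median of -0.92. Their share of summed FPKM was 0.0975% to 0.0992% in control mice and 0.0793% to 0.0860% in TAA mice. Pex11a, at -1.90, had a more negative log2 fold change than the peroxisomal members Acox2, Acox3, Acot8, Eci2, Crot and Hsd17b4. Of the 11 hepatocyte markers 4 were called lower (8.02% of tested genes), with a median of -0.75. Their share of summed FPKM, given above, was higher in TAA mice than in control mice. When libraries were scaled to the mitochondrial reference genes, a choice made after the data were seen, 24 members were called lower in the TAA group, where 3.75% of tested genes were called lower and 26.7% higher.

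**Figure D4:**
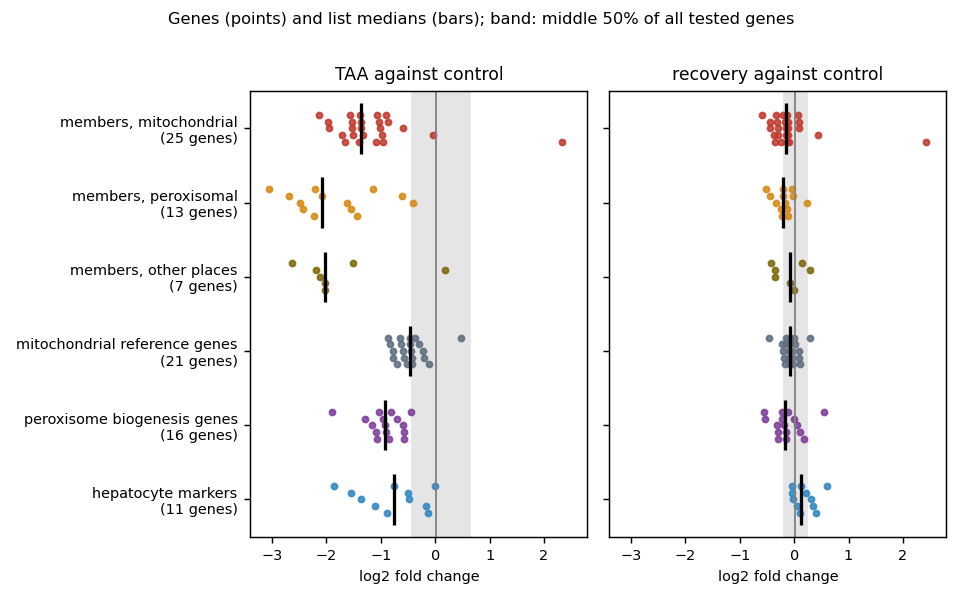
Log2 fold change (x axis) of each gene (points) of the members by compartment and of 3 other lists, with the median of the list (bar), for the TAA group (left) and the recovery group (right) against the control group. The grey band holds the middle 50% of all 14094 tested genes, and in the left panel the medians are -1.36 for mitochondrial members, -2.09 for peroxisomal members, -0.46 for mitochondrial reference genes, -0.92 for peroxisome biogenesis genes and -0.75 for hepatocyte markers. With FPKM as deposited every point of the left panel would lie further to the right by about the 0.64 of the scaling.

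After recovery 37 of the 45 members had a log2 fold change below 0 against control. The median over all members was -0.17, against 0.01 for all tested genes. In 20 members every recovery mouse was below every control mouse, where 15.6% of tested genes showed this, and in 3 members every recovery mouse was above (14.6%). With FPKM as deposited the number below was 15 (10.4% of tested genes), and with hepatocyte markers as the reference it was 32 (29.7%). The 2 members with an adjusted p below 0.05 in the lower direction were Hadhb at -0.44 ± 0.08 (adjusted p = 0.044) and Acaa1a. Of the TAA change on the log2 scale, the 35 members called lower kept a median of 13.1% in the recovery group, from -14.4% for Crat to 33.1% for Acsm5, where a negative share means a level above control. These shares were computed in the reported scaling for members chosen by the size of their fall, and carry no test. They depend on the scaling. With hepatocyte markers as the reference, the median of all 45 members was -0.89 for TAA against control and -0.38 for recovery against control. With FPKM as deposited these medians were -0.88 and -0.093.

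Within groups the mice were alike. The highest mouse was a median of 1.16-fold above the lowest in the control group, 1.18-fold in the TAA group and 1.16-fold in the recovery group. In the control group 5 members exceeded 1.5-fold (Acadsb, Acsm5, Decr2, Ehhadh and Pdk4), in the TAA group 3 (Decr2, Etfb and Pdk4) and in the recovery group 4 (Acadsb, Acot2, Acot3 and Ehhadh).

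The wider pathway was followed with 33 further enzymes and transporters, of which 32 passed the filter. In the TAA group 15 were called lower (8.02% of tested genes) and 5 higher (17.0%), and for recovery against TAA 15 were called higher (7.12%) and 4 lower (14.3%). For recovery against control the limma test called 0 of them, also at an adjusted p below 0.05 without the fold limit, and 8 had an unadjusted p below 0.05, as did 3242 of the 14094 tested genes. Cpt1b, the muscle form of the outer membrane palmitoyltransferase, was among the largest falls in the TAA group, at -2.84 ± 0.43 and a level of 0.1695 to 0.808 in the TAA mice. Slc27a2, a very long-chain acyl-CoA synthetase and transporter, was among the largest rises for recovery against TAA, at 2.33. Its level was 761, 744 and 762 in the control mice, 135, 115 and 128 in the TAA mice and 618, 662 and 623 in the recovery mice, so that the groups did not overlap.

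The largest rises in the TAA group were those of Cpt1c, a brain form of the palmitoyltransferase, at 2.14 ± 0.28 but with a level of at most 0.784, and of Acot9, a mitochondrial thioesterase, at 1.87 ± 0.15. Acot9 was 2.16, 2.26 and 2.49 in the control mice, 9.02, 10.1 and 7.15 in the TAA mice and 2.53, 2.84 and 2.23 in the recovery mice. For recovery against TAA Cpt1c fell by 1.99, and Acsl4, an acyl-CoA synthetase for arachidonic acid, by 1.75. Against the control group, the largest differences of the recovery group were -0.76 for Cpt1b, -0.63 for Nudt7, 0.47 for Acacb and 0.37 for Oxct1, none of them called.

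Of 24 regulators and other known PPAR-alpha targets, 15 were called lower (8.02% of tested genes) and 1 higher (17.0%) in the TAA group. For recovery against TAA 11 were called higher (7.12%) and 1 lower (14.3%), and for recovery against control 0 were called. In the last comparison the limma test gave 3 an adjusted p below 0.05 in the higher direction (1.33%) and 1 in the lower (1.38%). It gave 12 an unadjusted p below 0.05, against 3242 of the 14094 tested genes. Ppara itself was 161, 135 and 134 in the control mice, 56.3, 46.3 and 51.5 in the TAA mice and 112, 83.9 and 93.6 in the recovery mice. The groups did not overlap, and the recovery mice lay between. On the log2 scale the TAA group differed from control by -1.48 ± 0.11 (adjusted p = 4.5e-05), and the recovery group differed by 0.90 ± 0.13 from TAA (adjusted p = 0.00079) and by -0.57 ± 0.13 from control (adjusted p = 0.071).

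The omega-hydroxylases Cyp4a14 and Cyp4a10 had the largest falls, at -5.24 ± 0.31 and -4.71 ± 0.19, and the largest rises for recovery against TAA, at 5.005 ± 0.29 and 4.59 ± 0.22. Cyp4a14 was 1991, 2879.9 and 2232 in the control mice, 45.2, 104 and 49.9 in the TAA mice and 1731, 2081 and 2163 in the recovery mice. These genes belong to a family of similar sequence, among which reads can be split. Pdk3, another pyruvate dehydrogenase kinase, was the 1 gene called higher in the TAA group, at 2.07 ± 0.23 from a level of 0.188 to 0.361 in the control mice, and unlike Pdk4 it fell by 1.47 for recovery against TAA. Ppard had the second largest positive value in the TAA group, 0.71, and Lpin1 the second most negative one for recovery against TAA, -0.52, neither called. Against the control group, the recovery group had its largest values at 1.49 ± 0.40 for the hormone gene Fgf21 (adjusted p = 0.10) and 0.91 ± 0.15 for the lipid droplet gene Plin2 (adjusted p = 0.038), and its lowest at -0.66 for Pdk1 and -0.63 for Ppargc1b.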

How the data were processed

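The authors sequenced liver RNA, aligned reads to mm10 with HISAT2 2.2.1, counted them on genes with featureCounts 1.5.0-p3, per the submitters' processing notes, and deposited FPKM with no scaling between libraries. The annotation release and strand setting are not given in the sources used here. Loci of 92.7% of the genes equalled those of GENCODE M21. Whole read numbers fitted 56.6% to 62.8% of low values (tolerance 0.08, 16% by chance), so no count model was used.

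Median-of-ratios factors came from the 14005 genes above 0 in all 9 libraries. Genes averaging 0.1 FPKM or more were tested with limma 3.58.1 (R 4.3.3, lmFit, eBayes, trended prior variance), values taken as log2(scaled FPKM + 0.1), using the 6 libraries of each comparison, with Benjamini-Hochberg adjustment. The added 0.1 draws fold changes of low genes towards 0. The steps were tested on simulated data. Tables and plots used pandas 2.3.3, numpy 2.4.6 and matplotlib 3.10.9 under Python 3.11.15.

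Members and lists were chosen with earlier results of these data known. Per-mouse values are given for the extremes of each role list, for genes not called lower or called after recovery, for paralog sets and for the 2 most abundant members of each organelle. Acadsb, Etfa, Etfdh, Hadha and Hadhb were added after their values were seen. For the other lists, the 2 largest rises and falls of each comparison and Ppara are named, except 1 gene that is not reported here. Words of 75 bases shared with other transcripts, and overlapping exons, were counted in GENCODE M21.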

Additional observations from a re-analysis of the deposited data

How the results depend on the processing

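Other pseudocounts, other filters, 1 fit of all 9 libraries and a constant variance prior left 34 to 35 members called lower for TAA against control. A test against a 2-fold change left 29 lower there and 19 higher for recovery against TAA. Scaling mattered most. The members called lower in the TAA group were 35 in the reported fit, 17 with FPKM as deposited, 15 with quantile normalization, 17 with hepatocyte marker scaling and 24 with scaling to mitochondrial reference genes. Those called higher in the TAA group were 1, and 2 with quantile normalization. For recovery against TAA, 28 were called higher, and 16, 16 and 14 with the first 3 of these scalings, each of which also called 1 member lower (Acsl5) in place of 0. With quantile normalization the log2 fold change of Acaa2 in the TAA group turned to 0.23 and that of Fabp1 for recovery against TAA to -0.031, and the cause was not tested. The 2 scalings to gene lists were chosen after the data were seen.

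The number of members called higher for recovery against control was 1 (Pdk4), and 0 with no filter on low values (adjusted p = 0.054), with the test against a 2-fold change (0.64) and with the replicate block (0.056). Leaving out 1 mouse gave 32 to 37 members called lower in the TAA group, 28 to 29 called higher for recovery against TAA, and 0 to 1 called higher for recovery against control. Same-numbered mice did not deviate together (r of -0.07 to 0.12 across genes, against -0.11 to 0.13 for other numbers), so the numbers were not taken as pairs. With the replicate block 35 members were called lower in the TAA group and 28 higher for recovery against TAA. Read counts behind each FPKM were not known, so no counting error is given.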
